A study of Mus musculus with 8 samples.

Results

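Neurotrophins are secreted growth factors, and the genes examined here encode 2 of them and 4 of their receptors. They were chosen by gene symbol and are Bdnf, Ntf3, Ntrk2, Ntrk3, Ngfr and Sort1. All 6 were found among the 19201 genes of the deposited table, and all 6 had a mean of at least 10 normalized counts, so each was tested. RNA was sequenced from the hippocampi of 4 wild-type and 4 Mbd2-/- libraries, and each library pooled a pair of mice, so that a library is a pool and not an animal. The wild-type group, labelled control, was C57BL/6, and the other group was Mbd2-/- on a C57BL/6 background. Mbd2 encodes a protein that binds methylated CpG dinucleotides, and the comparison asks which transcripts differ when it is missing. The line is a germline mutant, so the deletion is not limited to the hippocampus or to one cell type. Mice of both genotypes were littermates of heterozygote parents and were 10 to 12 weeks old. The study grouped males and females, and the sex of the mice in each library is not given in the sources used here.

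A neurotrophin is made as a precursor that proteases cut to the mature factor. Mature factors bind Trk receptor tyrosine kinases, which signal through the Ras-MAP kinase, PI3 kinase-Akt and phospholipase C-gamma branches, whereas precursors bind the p75 neurotrophin receptor together with sortilin, a complex known for opposing the Trk signal. In the hippocampus, brain-derived neurotrophic factor and its receptor TrkB are known for their part in long-term potentiation and memory.

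Of the 6 genes, 2 were called as different between the genotypes. Ntf3, which encodes neurotrophin-3, was higher in Mbd2-/- hippocampi by 36.0% (95% interval 15.5% to 60.2%). Sort1, which encodes sortilin, decreased by 16.5% (95% interval -21.3% to -11.4%). Bdnf, Ntrk2, Ntrk3 and Ngfr were not called. The test was limma on log2(normalized count + 1) over 14504 genes, and genes with a p under 0.05 after Benjamini-Hochberg adjustment were called. It called 22.0% of all tested genes, 10.0% lower and 12.0% higher, and the 6 genes held 1 of each. Ntf3, Ntrk3 and Sort1, 3 of the 6, had no overlap between the genotypes, against 23.6% of all tested genes. On the recovered reads, edgeR's quasi-likelihood test called 22.3% and DESeq2 20.6% of all genes, and both called Ntf3 and Sort1 and none of the other 4. A normalized count is the number of reads on a gene divided by the size factor of the library.

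The reads on genes ranged from 8439570 to 23790825 in wild-type and from 8087750 to 14020765 in Mbd2-/- libraries. The normalized counts of Mbd2 itself averaged 346 ± 34.4 in controls and 260.0 ± 54.3 in mutants (SD, n = 4, log2 fold change -0.43, adjusted p = 0.0174, limma), and the genotypes overlapped. Exon 1 of the gene is intact in this line and its reads are part of the count. Fold changes followed transcript length in the Mbd2-/- libraries, where Spearman's rho across genes between a library's log2 difference from the wild-type mean and transcript length was -0.48, -0.43, -0.48 and -0.10 in replicates 1 to 4, against -0.07 to 0.06 in wild-type libraries. Long transcripts tended to be lower and short ones higher, and values with this trend removed are given beside several of the results.

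Because Mbd2 binds methylated CpG dinucleotides, the start regions of the genes are shown with their CpGs. They are from the RefSeq promoter table on GRCm38.p6, whereas the deposited counts are on mm9, so the coordinates here belong to the sequences only. The table held 11 start sites for 4 of the 6 genes, 7 for Bdnf, 2 for Ntf3 and 1 each for Ntrk2 and Ngfr, and it had no entry for Ntrk3 and Sort1. Both start sites of Ntf3 are printed because Ntf3 rose. A Bdnf start site is printed as that of the ligand that was not called, and it is the one among the 11 with the core of the cAMP response element, TGACG, which lies on the opposite strand and reads CGTCA in the sequence shown. Each sequence is the 250 bases before the start, 5′ to 3′ on the strand of the gene, with CpG dinucleotides in capitals.
Ntf3, start site 1, chr6:126166745-126166994, minus strand: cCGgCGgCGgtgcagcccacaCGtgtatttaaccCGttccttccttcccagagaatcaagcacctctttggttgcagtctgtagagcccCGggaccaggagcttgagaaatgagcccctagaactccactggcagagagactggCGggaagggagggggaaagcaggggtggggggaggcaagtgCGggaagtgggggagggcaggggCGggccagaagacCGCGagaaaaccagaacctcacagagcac
Ntf3, start site 2, chr6:126164961-126165210, minus strand: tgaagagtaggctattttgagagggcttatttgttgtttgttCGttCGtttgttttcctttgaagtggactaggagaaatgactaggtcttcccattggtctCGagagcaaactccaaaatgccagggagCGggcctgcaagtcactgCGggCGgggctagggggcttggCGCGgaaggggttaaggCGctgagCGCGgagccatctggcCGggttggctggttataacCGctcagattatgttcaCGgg
Bdnf, start site 3, chr2:109692186-109692435, plus strand: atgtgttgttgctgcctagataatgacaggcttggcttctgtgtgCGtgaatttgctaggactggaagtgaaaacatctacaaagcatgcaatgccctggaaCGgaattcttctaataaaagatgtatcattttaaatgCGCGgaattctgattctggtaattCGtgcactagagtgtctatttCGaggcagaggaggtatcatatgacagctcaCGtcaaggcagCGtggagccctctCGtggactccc

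The Ntf3 windows held 11 and 14 CpGs, and 35.6% and 29.4% of the 32851 windows in the table held at least as many. The Bdnf window held 9, and the other Bdnf windows ranged from 1 to 13. Ntrk2 and Ngfr had 19 and 16, against a median of 6 over all windows. TGACG or its reverse complement CGTCA was found in 17.8% of all windows. The deposited counts sum over all start sites of a gene, so no result can be assigned to 1 promoter, and methylation was not analysed here.

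Ntf3 encodes neurotrophin-3, the preferred ligand of TrkC, and lies on chromosome 6 of mm9 from 126051431 to 126116762 on the minus strand. It had 71.9, 78.2, 74.8 and 86.0 normalized counts in wild-type replicates 1 to 4 and 103, 98.8, 119.5 and 103 in Mbd2-/- replicates 1 to 4. Every Mbd2-/- library lay above every wild-type library. The means were 77.7 ± 6.10 and 106 ± 9.17 (SD, n = 4), and the log2 fold change was 0.44 with a standard error of 0.11 (adjusted p = 0.0103, limma). An exact two-sided permutation test on Ntf3 alone gave p = 0.0286, the smallest that 4 against 4 libraries allow. Ntf3 is a gene of few reads, with 48 to 162 per library, and its longest transcript, of 1427 bases, is the shortest among the 6 genes. With the length trend removed, the log2 fold change was 0.27 and the call was lost (adjusted p = 0.123, limma).

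Bdnf encodes brain-derived neurotrophic factor, the main ligand of TrkB, and lies on chromosome 2 of mm9 from 109514857 to 109567204 on the plus strand. It had 511, 513, 519.6 and 548 normalized counts in wild-type replicates 1 to 4 and 562, 514, 555 and 612 in Mbd2-/- replicates 1 to 4. Mbd2-/- replicates 1, 3 and 4 were above all wild-type libraries, but replicate 2 sat among them, so the genotypes overlapped. The means were 523 ± 17.1 and 561 ± 40.3 (SD, n = 4), and the log2 fold change of 0.10 had a 95% interval of -0.04 to 0.24 (adjusted p = 0.306, limma). In percent, the interval runs from -2.84% to 17.9%. Without Mbd2-/- replicate 4, the highest library, the value was 0.05, and with the length trend removed it was 0.15 (adjusted p = 0.112, limma). Bdnf has 10 annotated transcripts, and the table gives 1 count for all of them.

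**Figure D1:**
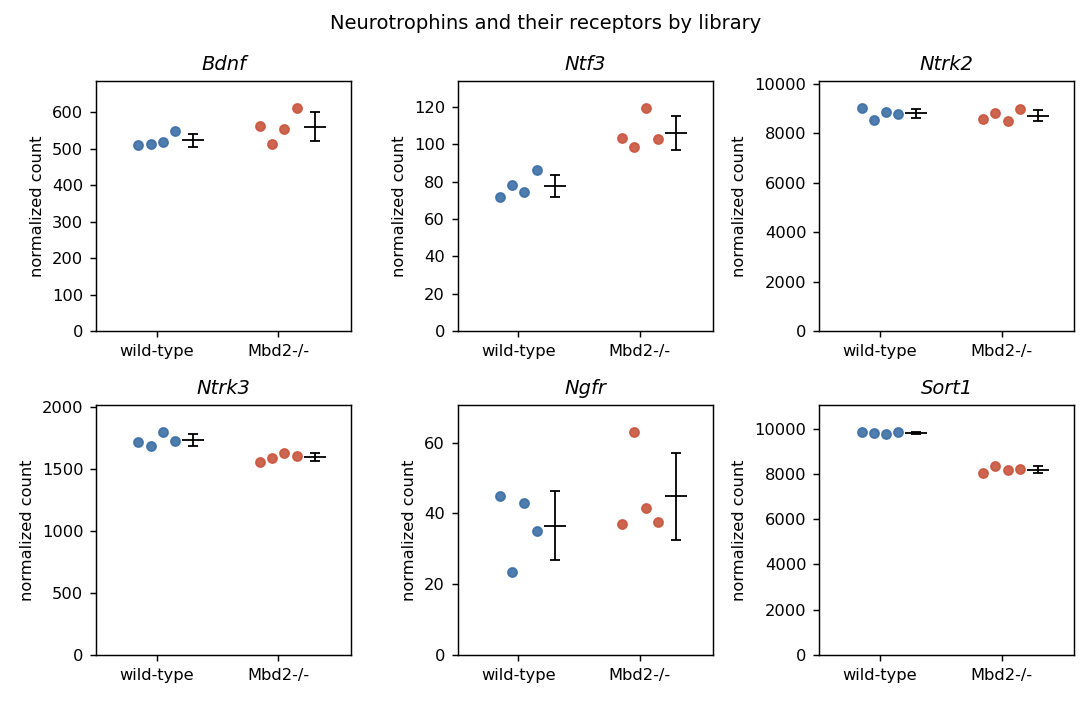
Normalized counts of the 6 genes (y axes, from 0) in the 4 wild-type (blue) and 4 Mbd2-/- (red) libraries, in order of replicate number, with the mean and SD of each genotype in black. The genotypes are apart in Ntf3, Ntrk3 and Sort1 and overlap in Bdnf, Ntrk2 and Ngfr, where Mbd2-/- replicate 2 stands at 63.1.

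Ntrk2 encodes TrkB, the receptor of brain-derived neurotrophic factor, and lies on chromosome 13 of mm9 from 58907957 to 59235331 on the plus strand. It had 9027, 8551, 8863 and 8762 normalized counts in wild-type replicates 1 to 4 and 8575, 8815, 8479.5 and 8989.8 in Mbd2-/- replicates 1 to 4. The libraries of the genotypes were interleaved. The means of 8801 ± 199.5 and 8715 ± 231 (SD, n = 4) gave a log2 fold change of -0.01 with a 95% interval of -0.10 to 0.08 (adjusted p = 0.843, limma), which is -6.97% to 5.39% in percent. Its longest transcript, of 8541 bases, is the longest among the 6 genes, and with the length trend removed the log2 fold change was 0.12 (adjusted p = 0.0618, limma). TrkB is made as a full-length kinase and as a truncated form that is abundant in astrocytes, and the gene count sums both. Of 10 astrocyte markers, 7 were called higher and 0 lower in Mbd2-/- hippocampi, against 12.0% higher and 10.0% lower over all tested genes. Their summed counts were 109677 to 112070 in wild-type and 120100 to 143793 in Mbd2-/- libraries, and their part in the Ntrk2 value was not tested. In bulk tissue, a change in the number of cells of a type and a change in RNA per cell cannot be told apart.

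Ntrk3 encodes TrkC, the receptor of neurotrophin-3, and lies on chromosome 7 of mm9 from 85337248 to 85723294 on the minus strand. It had 1715, 1680.0, 1799 and 1726 normalized counts in wild-type replicates 1 to 4 and 1550.2, 1590.3, 1626 and 1599 in Mbd2-/- replicates 1 to 4. The highest Mbd2-/- library was below the lowest wild-type library. The means of 1730.1 ± 50.3 and 1591 ± 31.3 (SD, n = 4) gave a log2 fold change of -0.12 (standard error 0.05), which did not pass over all genes (adjusted p = 0.0886, limma). The exact two-sided permutation test on Ntrk3 alone gave 0.0286, again the smallest p the design allows. Without Mbd2-/- replicate 4, Ntrk3 was called (-0.12, adjusted p = 0.0409, limma), and without that library the genes called over the whole table also rose, from 1450 to 2559 lower and from 1735 to 2596 higher.

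Ngfr encodes the p75 neurotrophin receptor, a death-domain receptor that binds all neurotrophins, and lies on chromosome 11 of mm9 from 95430132 to 95449049 on the minus strand. It had 45.0, 23.3, 42.8 and 35.1 normalized counts in wild-type replicates 1 to 4 and 37.0, 63.1, 41.4 and 37.5 in Mbd2-/- replicates 1 to 4. Mbd2-/- replicate 2 was the highest and wild-type replicate 2 the lowest, and the other 6 libraries were mixed. The means of 36.5 ± 9.79 and 44.8 ± 12.4 (SD, n = 4) gave a log2 fold change of 0.29 with a 95% interval of -0.17 to 0.76 (adjusted p = 0.356, limma). The value was 0.12 without Mbd2-/- replicate 2 and 0.10 without wild-type replicate 2. Ngfr had 26 to 69 reads per library, and the interval includes 0.44, the value of Ntf3.

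Sort1 encodes sortilin, which moves proteins between the Golgi, endosomes and the cell surface, helps to route brain-derived neurotrophic factor into the regulated secretory pathway, and pairs with the p75 receptor. The gene is on chromosome 3 of mm9 from 108087009 to 108164429 on the plus strand. It had 9879, 9804, 9749.5 and 9843 normalized counts in wild-type replicates 1 to 4 and 8024, 8361, 8193 and 8211 in Mbd2-/- replicates 1 to 4. The gap between the genotypes was wider than the range within either. The means were 9819 ± 55.4 and 8197 ± 138 (SD, n = 4), and the log2 fold change was -0.26 with a standard error of 0.04 (adjusted p = 4.66e-04, limma), and 9.96% of all tested genes had a value as low or lower. With the length trend removed the value was -0.15, still called (adjusted p = 0.0214, limma), for a longest transcript of 6796 bases. Exons of Gm12523, on the opposite strand, overlap those of Sort1, and since no strand setting is stated for the counting, reads of the pair cannot be told apart.

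**Figure D2:**
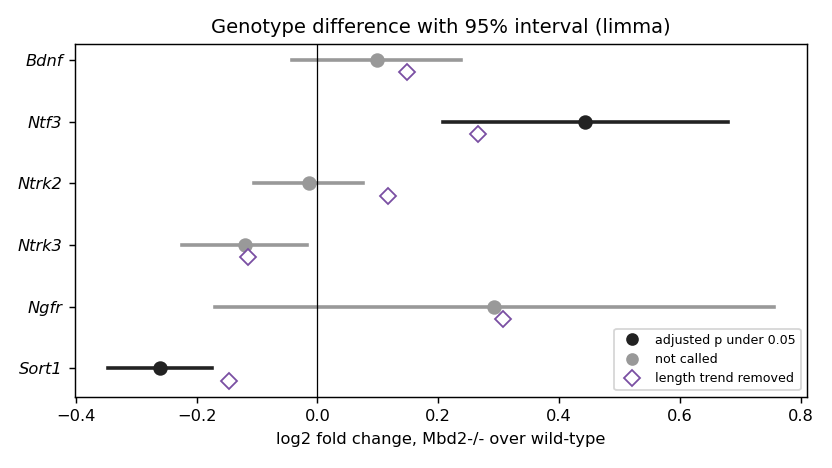
Log2 fold change of Mbd2-/- over wild-type (x axis) for the 6 genes, with 95% intervals from limma as lines, called genes in black, other genes in grey and the value with the length trend removed as an open diamond. Ntf3 at 0.44 and Sort1 at -0.26 are called, and removal of the length trend moves them to 0.27 and -0.15 and moves Ntrk2 from -0.01 to 0.12.

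Markers of other cell types and regions were counted in the same way, and over all tested genes 10.0% were called lower and 12.0% higher. All 10 choroid plexus markers were called higher, with summed counts of 23634 to 25327 in wild-type and 45676 to 52423 in Mbd2-/- libraries, and 8 of 9 thalamus markers were called lower, with sums of 4544 to 4752 in wild-type and 3033 to 3784 in Mbd2-/- libraries. Of 8 oligodendrocyte markers 6 were called higher, with sums of 77374 to 78614 in wild-type and 91128 to 97616 in Mbd2-/- libraries, as were 4 of 6 microglia markers and 3 of 8 endothelial and mural cell markers. Of 8 general neuronal markers 1 was called lower (12.5%, near the share of all genes) and 0 higher. Their sums were 86926 to 91576 in wild-type and 83832 to 91105 in Mbd2-/- libraries. The remaining lists were split, with 1 lower and 1 higher of 6 dentate granule cell markers, 2 lower and 4 higher of 8 interneuron markers, 2 lower and 3 higher of 8 meningeal markers, and 1 lower and 1 higher of 7 striatal markers. The dentate shares of 16.7% each way and the striatal shares of 14.3% each way were near those of all genes. No marker of any list was at 0 in all libraries, and the part of these lists in the values of Ntf3 and Sort1 was not tested.

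Levels of the 6 genes were compared as normalized counts per kilobase of the longest annotated transcript. In wild-type hippocampi the levels were 1445 ± 8.16 for Sort1, 1030.4 ± 23.4 for Ntrk2, 524 ± 15.2 for Ntrk3, 123 ± 4.02 for Bdnf, 54.5 ± 4.28 for Ntf3 and 10.6 ± 2.84 for Ngfr (SD, n = 4). In Mbd2-/- hippocampi they were, in the same order, 1206 ± 20.3, 1020.3 ± 27.1, 482 ± 9.48, 131 ± 9.45, 74.4 ± 6.43 and 13.0 ± 3.59. The order was the same in both genotypes, and no neighbours in it overlapped within a genotype. Sortilin and the Trk receptors thus stood above both ligands, and the p75 receptor was the lowest. Sort1 stood 1.40 times above Ntrk2 per kilobase in wild-type and 1.18 times in Mbd2-/- hippocampi. Isoforms shorter or longer than the longest annotated transcript would shift these levels.

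Ratios within a library depend little on how the libraries were scaled, and 4 of them were compared, each on normalized counts with 1 added. The log2 ratio of Bdnf to Ntf3 was 2.81, 2.70, 2.78 and 2.66 in wild-type replicates 1 to 4 and 2.43, 2.37, 2.20 and 2.56 in Mbd2-/- replicates 1 to 4. All Mbd2-/- libraries were below all wild-type libraries. The geometric mean of the Bdnf to Ntf3 ratio was 6.67 in wild-type and 5.25 in Mbd2-/- hippocampi. This is a difference of -0.35 on the log2 scale (exact two-sided permutation p = 0.0286, adjusted over the 4 ratios p = 0.114). The transcripts of the pair differ in length, so this ratio is not free of the length trend. The other ratios differed by -0.11 for Ntrk3 to Ntrk2 (exact permutation p = 0.0571), -0.11 for Ntrk2 to Bdnf (exact permutation p = 0.114) and 0.31 for Ngfr to Ntrk2 (exact permutation p = 0.343), with overlap in each. The Ngfr to Ntrk2 difference was 0.13 without wild-type replicate 2 and 0.14 without Mbd2-/- replicate 2. None of the 4 passed after adjustment. The smallest permutation p that the libraries allow is 0.0286, and 1 ratio alone at it has an adjusted p of 0.114, so it could not pass.

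**Figure D3:**
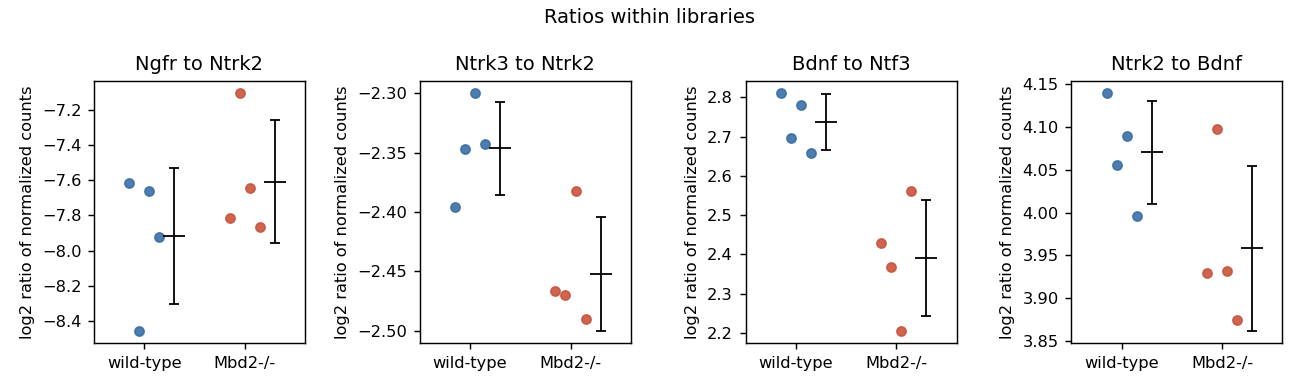
Log2 ratio of normalized counts within each library (y axes, which do not start at 0) for 4 pairs of genes in wild-type (blue) and Mbd2-/- (red) libraries, in order of replicate number, with the mean and SD of each genotype in black. Of the 4 pairs, the genotypes are apart in Bdnf to Ntf3, at 2.66 to 2.81 in wild-type and 2.20 to 2.56 in Mbd2-/- libraries.

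Other ligands, receptors and co-receptors of the system formed a list of 12 genes, of which 10 were tested. Of these, 5 were called lower and 0 higher, against 10.0% called lower among all genes, and the median log2 fold change was -0.20 against -9.10e-05 over all genes. Sorcs3, a sortilin-related receptor, had 579, 595, 606 and 618 normalized counts in wild-type and 483, 454, 451 and 467 in Mbd2-/- replicates 1 to 4, without overlap (log2 fold change -0.37, adjusted p = 6.04e-04, limma). Lingo1, a co-receptor that joins the p75 receptor in a complex that limits axon growth, had 2603, 2854, 2891 and 2785 in wild-type and 2370.0, 2169, 2311 and 2066 in Mbd2-/- replicates, also without overlap (-0.32, adjusted p = 0.00102, limma). Kidins220, a scaffold that Trk receptors phosphorylate, fell from 5104 ± 48.3 to 4400.4 ± 264 (SD, n = 4, log2 fold change -0.22, adjusted p = 0.00599, limma). Sorcs1 (-0.27, adjusted p = 0.0230) and Sorl1 (-0.16, adjusted p = 0.0335, limma) were the other called genes. The count of 5 was 3 without wild-type replicate 1, wild-type replicate 4 or Mbd2-/- replicate 1. Calls over all genes also fell without each of these libraries. With the length trend removed, Sorcs3 and Lingo1 were the 2 of the 5 that kept their calls, and 4 genes of the list were called, 3 lower and 1 higher.

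Sort1, Sorl1, Sorcs1, Sorcs2 and Sorcs3 are the Vps10p-domain receptors, a family of sorting receptors, and this grouping was made after the values were seen. Their log2 fold changes lay between -0.37 in Sorcs3 and -0.15 in Sorcs2. Sorcs2, which binds the precursor of brain-derived neurotrophic factor together with the p75 receptor, had 974 to 1059.6 normalized counts in wild-type and 903 to 936 in Mbd2-/- libraries and was not called (adjusted p = 0.0572, limma). The genotypes overlapped in Sorl1, where replicate 4 of the Mbd2-/- group (5369.9) exceeded replicate 2 of the wild-type group (5279). With the length trend removed, Sort1 and Sorcs3 were still called, and Sorcs1 (-0.15), Sorcs2 (-0.05) and Sorl1 (-0.02) were not.

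**Figure D4:**
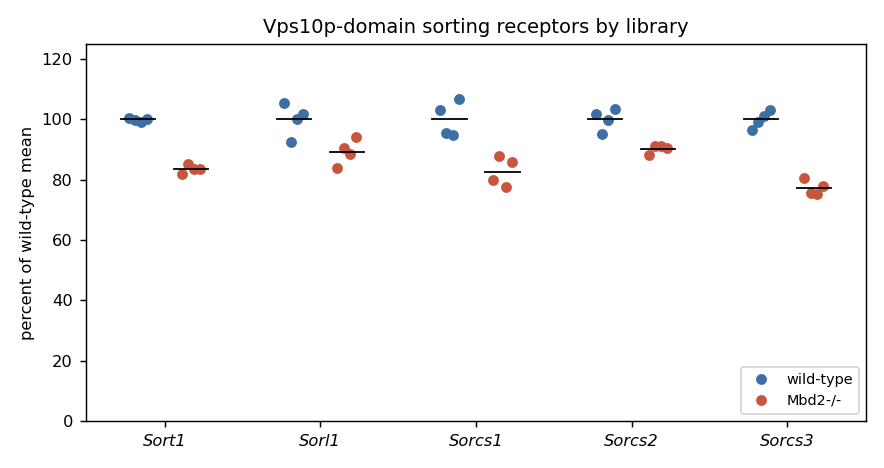
Normalized counts of the 5 Vps10p-domain receptor genes as percent of the wild-type mean (y axis, from 0) in the 4 wild-type (blue) and 4 Mbd2-/- (red) libraries, with the mean of each genotype as a black line. The libraries of the genotypes overlap in Sorl1.

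Ntf5, which encodes neurotrophin-4, was below the minimum mean of 10. It had 0, 3.76, 1.82 and 1.06 normalized counts in wild-type replicates 1 to 4 and 5.11, 2.74, 6.38 and 1.92 in Mbd2-/- replicates 1 to 4. The genotypes overlapped at this level of a few reads, and with no filter on low values Ntf5 was not called (log2 fold change 1.04, adjusted p = 0.158, limma). Forebrain cholinergic neurons are known to respond to neurotrophins. Markers of cholinergic neurons were lower in Mbd2-/- hippocampi, and which cholinergic neurons carried these reads was not tested. Slc5a7, the choline transporter and the one gene of the cholinergic list above the minimum, had means of 28.7 in wild-type and 11.1 in Mbd2-/- libraries (-1.33, adjusted p = 0.00618, limma). With no filter, Chat, the enzyme that makes acetylcholine, had means of 10.1 and 3.62 (-1.37, adjusted p = 0.0217), and Slc18a3, the vesicular acetylcholine transporter, 9.91 and 3.55 (-1.30, adjusted p = 0.0117, limma). Lhx8, a transcription factor of forebrain cholinergic neurons, had a mean of 2.57 in wild-type and was at 0 in all Mbd2-/- libraries. Cholinergic neurons also express Ngfr, and the part of this in its value was not tested.

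Of the enzymes and carriers that process and move the precursors, 12 were tested, and 4 were called lower and 2 higher, which is 50.0% against 22.0% of all genes. Hap1, the huntingtin-associated protein that links vesicles carrying brain-derived neurotrophic factor to motors, had 1620.2, 1648, 1673 and 1648 normalized counts in wild-type and 1144, 1225, 1302 and 1124 in Mbd2-/- replicates 1 to 4, without overlap (log2 fold change -0.46, adjusted p = 8.68e-05, limma). Pcsk1 and Pcsk2, prohormone convertases of the regulated secretory pathway, fell from 280.3 ± 9.49 to 210.2 ± 12.5 (-0.41, adjusted p = 0.00141) and from 3175 ± 73.4 to 2694 ± 71.3 (SD, n = 4, -0.24, adjusted p = 0.00230, limma). Htt, huntingtin, was the other lower gene (-0.22, adjusted p = 0.0139, limma). The higher genes were Cpe, carboxypeptidase E (0.12, adjusted p = 0.0308), and Plat, tissue plasminogen activator (0.22, adjusted p = 0.0408, limma). Furin, the convertase of the constitutive pathway, was not called (-0.07, adjusted p = 0.508, limma). Hap1, Pcsk1 and Pcsk2 kept their calls in every alternative and with each library left out. The other 3 calls were lost with the length trend removed, and the count was 3 without wild-type replicate 1, 3 or 4 or Mbd2-/- replicate 1. Calls over all genes also fell without each of these libraries. Plg, Mmp3 and Mmp7 were not analysed here.

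The Trk signalling chain of 45 genes had 4 called lower and 1 higher, which is 11.1% against 22.0% of all genes, and its median log2 fold change was -0.01. Plcg1, the phospholipase C-gamma that docks on Trk receptors, had 1018, 855, 936 and 921 normalized counts in wild-type and 696, 743, 760.3 and 802 in Mbd2-/- replicates 1 to 4, without overlap (log2 fold change -0.31, adjusted p = 0.00350, limma), and kept its call in every alternative. The kinases Mtor (-0.20, adjusted p = 0.00973) and Prkca (-0.18, adjusted p = 0.0219) and the adaptor Crkl (-0.18, adjusted p = 0.0365, limma) were also lower, and the small GTPase Rap1b was higher (0.27, adjusted p = 0.0236, limma). These 4 calls were lost with the length trend removed, when 6 genes of the chain were called, 2 lower and 4 higher, and Plcg1 was the 1 of them called before. The MAP kinase kinase Map2k1 (0.05) was among the most expressed and was not called. Leaving out wild-type replicate 1 or 3 or Mbd2-/- replicate 2 gave a count of 2 in place of 5, and leaving out wild-type replicate 4 or Mbd2-/- replicate 1 gave 3. Calls over all genes also fell in each of these settings. The count was 8 when Mbd2-/- replicate 3 was dropped, with 1380 lower and 1557 higher over all genes. It was 14 when Mbd2-/- replicate 4 was dropped, with 2559 lower and 2596 higher, against 1450 and 1735 with all libraries.

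Of 18 adaptors and effectors of the p75 receptor, 2 were called lower and 3 higher, or 27.8% against 22.0% of all genes. Zfp369, a zinc finger protein known as a p75 interactor, had 334, 351, 356 and 363 normalized counts in wild-type and 235, 235, 234 and 283 in Mbd2-/- replicates 1 to 4, without overlap (log2 fold change -0.51, adjusted p = 4.66e-04, limma). Zfp110, a related gene with which it could share reads, had 224 ± 14.1 and 247 ± 18.9 (SD, n = 4, adjusted p = 0.253, limma). Mapk10, a neuronal JNK, was lower (-0.22, adjusted p = 0.0127), and Ngfrap1, a p75-associated death effector (0.31, adjusted p = 0.00470), Bex1 (0.27, adjusted p = 0.0186) and the GTPase Rhoa (0.22, adjusted p = 0.00812, limma) were higher. Ngfrap1 and Bex1 have transcripts of 930 and 866 bases, and with the length trend removed their values were 0.05 and -0.01. Of the 5 calls, that of Zfp369 was kept with the trend removed. Maged1 (-0.03) and Sqstm1 (0.12), the most expressed genes of the list, were not called. The count was 10 without Mbd2-/- replicate 4, where calls over all genes also rose, to 2559 lower and 2596 higher.

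Of 21 genes that act on Bdnf transcription, 1 was called lower and 3 higher, or 19.0% against 22.0% of all genes. Camk2a, a calcium/calmodulin-dependent kinase of excitatory synapses, had 67755, 68835, 68731 and 66829 normalized counts in wild-type and 81232, 83984, 81732 and 80684 in Mbd2-/- replicates 1 to 4, without overlap (log2 fold change 0.27, adjusted p = 1.38e-04, limma), and kept its call in every alternative. Usf2 (0.27, adjusted p = 0.0162) and the CREB coactivator Crtc1 (0.14, adjusted p = 0.0310) were called higher and the acetyltransferase Ep300 lower (-0.19, adjusted p = 0.0494, limma). The call of Ep300 was lost with edgeR and with DESeq2. With the length trend removed the values were 0.16 for Usf2, 0.28 for Crtc1 and -0.06 for Ep300 (adjusted p = 0.0761, 0.00124 and 0.472, limma). Creb1 (-0.16, adjusted p = 0.226), Npas4 (0.27, adjusted p = 0.0949) and Camk2b (-0.09, adjusted p = 0.165, limma) were not called. Leaving out replicate 1 of either genotype gave a count of 1 in place of 4, and leaving out replicate 2 of either genotype or wild-type replicate 4 gave 2. Calls over all genes also fell in each of these settings. The count was 12 when Mbd2-/- replicate 4 was dropped, where calls over all genes rose from 1450 to 2559 lower and from 1735 to 2596 higher.

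Of 16 genes known to respond to brain-derived neurotrophic factor, 1 was called lower and 1 higher, or 12.5% against 22.0% of all genes. Egr1, an immediate early transcription factor, had 1394, 1548, 1479 and 1461 normalized counts in wild-type and 1263, 1173, 1135 and 1096 in Mbd2-/- replicates 1 to 4, without overlap (log2 fold change -0.33, adjusted p = 9.87e-04, limma). Npy, neuropeptide Y of inhibitory interneurons, had 265, 306, 360.1 and 319 in wild-type and 568, 539.6, 505 and 444 in Mbd2-/- replicates, without overlap (0.72, adjusted p = 1.41e-04, limma). With the length trend removed Npy was at 0.37 (adjusted p = 0.00348, limma), its transcript being 566 bases long. The plasticity genes Vgf (-0.21, adjusted p = 0.0567), Arc (0.16, adjusted p = 0.0730) and Homer1 (-0.16, adjusted p = 0.114, limma) were not called. Vgf was called once the length trend was removed, at -0.25 (adjusted p = 0.0118, limma), and 5 genes of the list were, 4 lower and 1 higher. The count of 2 was 4 when replicate 3 of the Mbd2-/- group was dropped and 5 when replicate 4 was. Without replicate 4, calls over all genes also rose, to 2559 lower and 2596 higher.

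**Figure D5:**
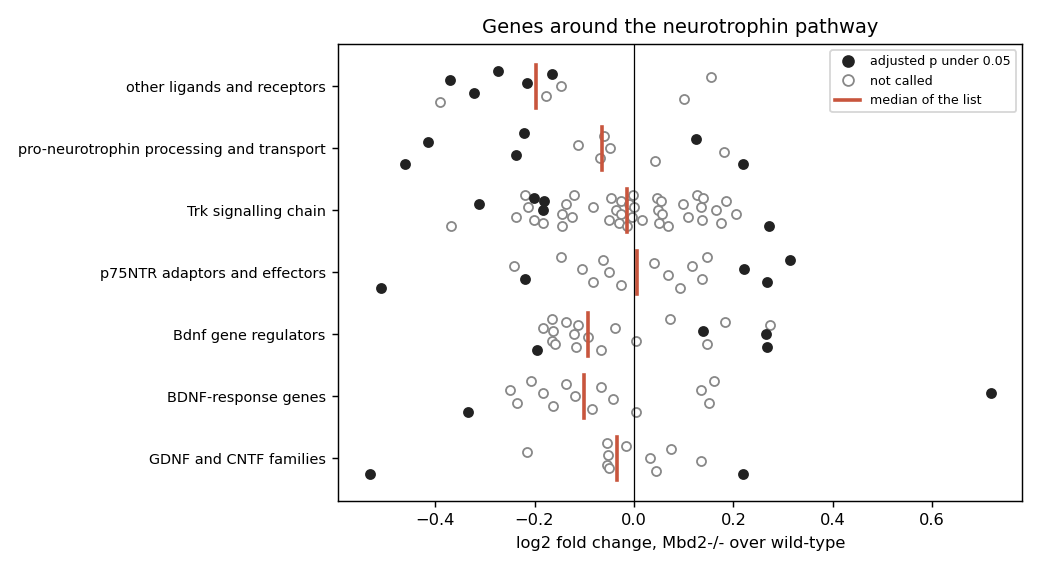
Log2 fold change of Mbd2-/- over wild-type (x axis) for each tested gene of 7 lists (rows), with called genes filled, other genes open and the median of each list as a red line. The called genes of the list of other ligands and receptors are all below 0, and the medians of the other 6 lists lie between -0.10 and 0.01.

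Among 18 genes of the GDNF and CNTF families, which are other trophic factors and receptors of neurons, 12 were tested, and 1 was called lower and 1 higher, or 16.7% against 22.0% of all genes. Ret, the receptor tyrosine kinase of the GDNF family, had 124, 129, 133 and 133 normalized counts in wild-type and 84.3, 103, 92.4 and 79.8 in Mbd2-/- replicates 1 to 4, without overlap (log2 fold change -0.53, adjusted p = 0.00261, limma). Manf was called higher (0.22, adjusted p = 0.0229, limma), and with the length trend removed it was at 0.15 (adjusted p = 0.114, limma) and not called. The receptor genes Il6st (-0.05), Lifr (-0.05) and Gfra1 (-0.05), the most expressed of the list, were not called. The count of 2 was 1 without wild-type replicate 1, 3 or 4 or Mbd2-/- replicate 1 or 2, where the call of Ret was kept. Calls over all genes also fell without each of these libraries.

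The genes most like each member over the 8 libraries were found by Pearson's r of log2(normalized count + 1) among 10630 or 10631 genes with a mean of at least 100. They were Adcy9 (0.995), Abcc5 (0.994) and Dner (0.994) for Sort1, Btbd11 (0.992), Mcm3ap (0.989) and Adgrl1 (0.988) for Ntrk3 and Nfe2l2 (0.992), Psmd6 (0.981) and Fopnl (0.977) for Ntf3. For Bdnf they were Agpat5 (0.953), Magt1 (0.953) and Smad4 (0.946), for Ntrk2 Lonrf3 (0.947), Lrp1b (0.943) and Ipw (0.941) and for Ngfr Amer2 (0.945), Pddc1 (0.940) and Siae (0.932). All of these values share the 8 libraries and their genotype difference, and with this many genes compared they are a description.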

How the data were processed

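Total RNA of 4 wild-type and 4 Mbd2-/- hippocampal libraries was depleted of ribosomal RNA by the authors and sequenced as paired ends of 100 bases. Duplicated reads were removed, the rest were aligned to mm9 with STAR, and the genotypes were compared with DESeq2. The read counter and all versions are not given in the sources used here. The signal deposited per library holds normalized counts, for which the authors divided reads by a size factor. The authors' own comparison was also deposited, as a mean signal, log2 fold changes with standard errors, a Wald score and p-values, and was not used.

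Dividing a library by its smallest value above 0 gave whole reads for 100% of values, to within 0.01 of a read. The main test was limma 3.58.1 (R 4.3.3) on log2(normalized count + 1), restricted to genes whose mean was 10 or more (trend and robust moderation, no covariates, Benjamini-Hochberg over all tested genes). Fold changes on this scale understate those of low genes. Alternatives were edgeR 4.0.16 and DESeq2 1.42.0 on the recovered reads, TMM and upper quartile scaling, pseudocounts of 0.5 and 5, no minimum and a minimum of 50, removal of a lowess trend on transcript length (span 0.3), the replicate number as a block, and each library left out. Transcript lengths and mm9 coordinates are from GENCODE vM1, in which 94.3% of the 19201 symbols matched. Within each genotype, the squared difference between any pair of libraries averaged 1.92 to 13.99 times what counting error alone gives, so none repeated another. The p-values measure the spread between pools, and depth covers counting error only.

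The 6 genes and the gene and marker lists were chosen with earlier results of these data known. Genes named from a list were up to 6 called genes with the smallest adjusted p and up to 3 with the highest mean, together with Mbd2, markers and the 3 genes most like each member. Any other gene named was chosen after its values were seen. Some genes of the lists are counted but not reported here by name.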

Additional observations from a re-analysis of the deposited data

Results flagged for a closer look

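In groups of 4 libraries, a library was singled out when its gap to the nearest other exceeded Dixon's 95% critical share of the range of the group, which chance gives in about 1 in 20 groups. Of 102 groups examined, 5 had such a library. Ngfr in Mbd2-/- replicate 2 was at 63.1 normalized counts, against 37.0 to 41.4 in the other Mbd2-/- libraries. Htt in wild-type replicate 2 was at 3477, against 3877 to 3933 in the other wild-type libraries, and Rap1b in wild-type replicate 3 was at 622, against 687 to 694. In Mbd2-/- replicate 4, Zfp369 was at 283, against 234 to 235 in the other Mbd2-/- libraries, and Lifr, a receptor subunit for leukaemia inhibitory factor, was at 1486, against 1184 to 1232.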

How the results depend on the processing

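Removal of the length trend moved Ntf3 to 0.27, which was no longer called, turned Ntrk2 from -0.01 to 0.12, and left 1 of the 6 genes called. Over all genes it called 961 lower and 1142 higher, against 1450 and 1735. The number called fell to 3 among processing and transport genes, 2 among p75 adaptors, 2 among Bdnf regulators and 1 in the GDNF and CNTF families, and rose to 5 among response genes. In the Trk chain 6 were then called, of which 1 was among the 5 called before, and 4 were among other ligands and receptors. Of the 29 called genes of the 7 lists, 17 lost their call with this trend removed, 15 kept it with each library left out, and 11 kept it in every setting.

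With each library left out, the log2 fold change ranged from -0.13 to -0.10 for Ntrk3, which was called without Mbd2-/- replicate 4, and the number called ranged from 3 to 6 among other ligands and receptors, 3 to 6 in processing and transport, 2 to 14 in the Trk chain, 4 to 10 among p75 adaptors, 1 to 12 among Bdnf regulators, 2 to 5 among response genes and 1 to 3 in the GDNF and CNTF families. Over all 14504 genes, 868 to 2559 were called lower and 1170 to 2596 higher, against 1450 and 1735 with all libraries. The list counts are to be read beside these. Where fewer libraries enter, the spread is estimated from fewer.

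The replicate numbers do not pair the libraries, since same-numbered libraries correlated at -0.10, -0.06, 0.07 and 0.04. With the number as a replicate block, 8 genes of the Trk chain were called, and the Bdnf to Ntf3 ratio, at -0.35, had an exact sign-flip p of 0.125, the smallest that 4 pairs allow. The calls of the 6 neurotrophin genes were unchanged under the block. Among the called genes of the lists Cpe and Crtc1 lost their calls, leaving 5 processing genes and 3 Bdnf regulators, 3 response genes were called, and no list count but that of the Trk chain moved by over 1.5 times. Sort1 was called in every alternative that was run. Ngfr has no value under the minimum mean of 50, which it does not reach. Ngfr and Ntf3 had the fewest reads of the 6 genes, and the part of depth in their values was not tested.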
